A study of Drosophila melanogaster with 288 samples.

Results

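The Osiris (Osi) genes and 7 tracheal genes were followed through embryogenesis of Drosophila melanogaster. The rule took every row whose gene symbol is Osi with a number, which gave 23 genes, and added trh, vvl, rib, dys, tgo, pio and uif. The current symbol of dys is dysf, which is used below. All 30 were among the 17698 genes of the table.

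Osiris genes are an insect family that code for proteins with a signal peptide and a shared domain of unknown function. Most of them sit side by side in 1 block of a chromosome, and they are known for expression in tissues that lay down cuticle, such as epidermis, trachea and foregut. The trachea, the air tubes of the fly, form from epidermal cells that turn on transcription factors, invaginate, branch, fuse and then secrete a luminal matrix before the tubes fill with gas. The tracheal genes here cover these steps, from transcription factors (trh, tgo, vvl, rib, dysf) to proteins of the lumen and the apical surface (pio, uif).

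The samples were single whole embryos of the white-eyed strain W1118, reared at room temperature on standard medium, with no treatment that differed between groups. They fell into 8 age windows at intervals of 3 h, namely 2-3 h, 5-6 h, 8-9 h, 11-12 h, 14-15 h, 17-18 h, 20-21 h and 23-24 h. BRB-seq was used, which tags the RNA of each embryo with a barcode, pools many embryos into one library and reads transcripts from their 3′ ends. Levels are given as cpm (read counts scaled to a common library size) after TMM scaling. They are not divided by gene length, because the reads come from the 3′ end. They serve to compare embryos for 1 gene, and differences in level between genes were not tested.

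Of the 288 samples, 250 passed the limits on depth and on genes detected, and 97 of those formed a small cluster apart from the developmental path. The remaining 153 embryos were used, 11, 24, 27, 14, 21, 18, 24 and 14 in order of age. Their totals ran from 377740 to 24787342 counts, with a median of 6072822. Over genes outside the members, 12 embryos were most alike to a window 2 or more steps from their label (2 at 2-3 h, 2 at 5-6 h, 1 at 8-9 h, 5 at 20-21 h and 2 at 23-24 h), so results are given with and without them. For 1 sample the labels give conflicting ages, and its title was used.

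Of the 23 Osi genes, 20 lay within 167.9 kb of chromosome arm 3R, from 6173549 to 6341424 in the Ensembl release 115 annotation, with 18 on the plus and 2 on the minus strand. The gaps between neighbours had a median of 3608 bp. The 3 others were Osi21 on 2L (11284327 to 11285706), Osi22 on 3R (13290629 to 13291846) and Osi23 on 3R (30444076 to 30445046).

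A mean above 1 cpm over the 153 embryos, the limit for testing, was reached by 14 Osi genes (Osi2, Osi5, Osi6, Osi7, Osi9, Osi12, Osi14 to Osi20 and Osi24), all in the block. The 9 that did not reach it were Osi1, Osi3, Osi4, Osi8, Osi11, Osi13, Osi21, Osi22 and Osi23. Their counts summed over all 153 embryos ranged from 67 for Osi23 to 397 for Osi3, and the highest cpm in any embryo from 1.27 for Osi22 to 19.3 for Osi3. The 3 genes outside the block were among them, with 169 counts for Osi21, 78 for Osi22 and 67 for Osi23. A gene that passed this limit only through the window where it is high had to differ between windows, so the 14 do not stand for the family, and counts over all 23 without the limit are given beside theirs. All 7 tracheal genes passed.

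The Osi genes rose together at 11-12 h. Osi6 had a level of 4.44 cpm in the lowest, 10.6 in the median and 542.7 in the highest embryo at 8-9 h, against 53.4, 1300 and 3958 cpm at 11-12 h. The highest embryo at 8-9 h stood far above the rest of its window, and 11 of 14 embryos at 11-12 h lay above it, while all 14 lay above the second highest, at 43.9 cpm. The log2 fold change of Osi6 was 5.35 ± 0.57 (SE, adjusted p = 9.20e-14, edgeR quasi-likelihood test with Benjamini-Hochberg adjustment over 9833 genes).

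Osi7 went from 4.73, 13.2 and 614.4 cpm (lowest, median, highest) at 8-9 h to 18.2, 819.3 and 5957 cpm at 11-12 h, a log2 fold change of 5.17 ± 0.52. Osi18 went from 0.16, 1.27 and 6.66 cpm to 1.006, 69.3 and 527.9 cpm (log2 fold change 5.94 ± 0.75). Osi16 had the largest log2 fold change of the family, 7.08 ± 0.71, from a median of 0 and a highest of 0.27 cpm to a median of 3.41 and a highest of 37.05 cpm, with adjusted p = 4.09e-15. The windows overlapped in each of these 4 genes. For Osi6 and Osi7, 14 and 13 of the 14 embryos at 11-12 h lay above the second highest embryo of 8-9 h, and for Osi16 and Osi18, 9 and 11 did.

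All 14 tested Osi genes were higher at 11-12 h than at 8-9 h and none was lower, where 15.4% of all genes tested were higher and 6.61% lower. The log2 fold changes ran from 2.97 for Osi2 to 7.08 for Osi16, with a median of 5.47, against -0.01 over all genes tested. With no limit on the level, 18 of 23 were higher and none lower, where 12.4% of all genes were higher and 5.92% lower. Those added were Osi3 (log2 fold change 4.92), Osi4 (3.90), Osi13 (2.04) and Osi8 (1.51), so Osi1, Osi11, Osi21, Osi22 and Osi23 were not called.

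The rise was seen in each of the 4 libraries. The summed Osi level had a median of 4113 cpm at 11-12 h against 61.6 at 8-9 h in library E1_1 and 4486 against 31.7 in E1_2. It was 3638 against 44.0 cpm in E2 and 806.5 against 31.2 cpm in E3. Without the 12 embryos all 14 were again higher, where 17.2% of all genes were, with a median log2 fold change of 5.58. Because whole embryos were measured, more cells of a type and more RNA per cell cannot be told apart.

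**Figure D1:**
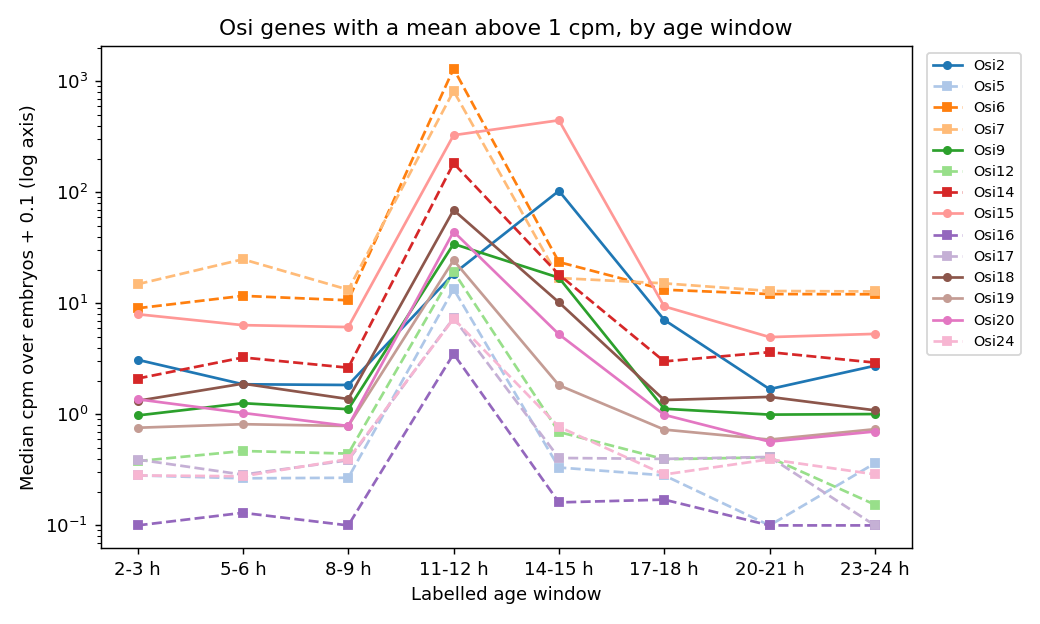
Median level over embryos (cpm + 0.1, log axis) of the 14 tested Osi genes in each labelled age window. Dashed lines with squares are the 8 genes called lower at 14-15 h than at 11-12 h. Solid lines with circles are the 6 not called lower, some of which also have lower medians. Osi2 and Osi15 have their highest median at 14-15 h, the others at 11-12 h.

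At 14-15 h the tested Osi genes differed in their calls. Called lower than at 11-12 h were 8 of the 14 (Osi5, Osi6, Osi7, Osi12, Osi14, Osi16, Osi17 and Osi24), where 9.09% of all genes tested were lower. Higher was 1, Osi2, where 20.1% were higher. The other 5 (Osi9, Osi15, Osi18, Osi19 and Osi20) were not called, with log2 fold changes from 0.05 for Osi18 to 0.92 for Osi15. Medians did not separate the genes called lower from the rest. The median at 14-15 h, divided by that at 11-12 h, was 0.07 for Osi19 and 0.12 for Osi20, not called. It was 0.10 for Osi14 and 0.09 for Osi24, called lower. Without the 12 embryos 8 were again lower and Osi2 higher, where 11.2% of all genes were lower and 22.4% higher.

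By log2 fold change Osi17 fell furthest, at -4.84 ± 0.61 (adjusted p = 6.10e-11, edgeR). Its median went from 7.29 cpm with a highest of 39.8 to 0.31 with a highest of 2.37 cpm. By medians other genes fell further, with a ratio of 14-15 h to 11-12 h of 0.02 for Osi6 and Osi7 against 0.04 for Osi17. Osi7 fell by 4.11 ± 0.54 on the log2 scale, to 4.24, 16.8 and 1033 cpm (lowest, median, highest), and Osi6 by 3.77 ± 0.58, to 7.02, 23.5 and 1439 cpm. In Osi6 and Osi7 at least 1 embryo at 14-15 h was still as high as a typical embryo at 11-12 h.

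Osi2 moved the other way. Its level was 0.34, 18.4 and 60.2 cpm (lowest, median, highest) at 11-12 h and 1.505, 103.2 and 835.0 cpm at 14-15 h. Most embryos at 14-15 h (13 of 21) were above the highest at 11-12 h and the lowest were within its range, with a log2 fold change of 2.98 ± 0.97 (adjusted p = 0.0106, edgeR). This call was lost without library E1_1 and without library E2, each of which left 0 Osi genes higher.

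Osi15 also had its highest median at 14-15 h, with 0.81, 446.4 and 2423 cpm (lowest, median, highest) against 13.5, 327.7 and 1085 cpm at 11-12 h. The 14-15 h embryos covered the whole range of the window before and beyond it at both ends, and the difference was not called (log2 fold change 0.92 ± 0.68, adjusted p = 0.307, edgeR). With only the embryos most alike to their own window it was called higher, with a log2 fold change of 1.35. For Osi18, Osi19 and Osi20, neighbours at one end of the block, medians dropped (to 10.1, 1.73 and 5.17 cpm) while the highest embryo rose (to 955.9, 396.0 and 785.8 cpm). The highest embryos at 14-15 h were thus above those of 11-12 h, whose highest were 527.9, 247.3 and 313.3 cpm, and the lowest embryos of both windows were near 0.

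With no limit on the level, 3 of 23 Osi genes were higher and 10 lower at 14-15 h, where 18.1% and 7.0% of all genes were. The genes added to the higher side were Osi1 (log2 fold change 2.91, 255 counts in all embryos) and Osi23 (2.12, 67 counts). Osi3 (-2.78) and Osi4 (-2.95) joined the lower side. All 4 changes rest on few counts.

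The 21 embryos at 14-15 h differed with their progress over other genes. Of these, 15 were most alike to the mean of 14-15 h and 6 to that of 17-18 h, judged on genes other than the members and the lists. Osi15 was at 93.4, 651.8 and 2423 cpm (lowest, median, highest) in the 15 and at 0.81, 7.17 and 20.3 cpm in the 6. These ranges did not overlap, and Osi15 was the only tested Osi gene for which this held. For 12 of the 14 tested Osi genes, the median of the 15 lay above the highest of the 6.

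Osi2 was at 31.8, 124.2 and 835.0 cpm in the 15 and at 1.505, 12.3 and 34.1 cpm in the 6, so that only the extremes met. Osi6 was at 10.8, 33.02 and 1439 cpm in the 15 and at 7.02, 14.7 and 23.5 cpm in the 6. The summed Osi level ran from 179.3 to 7851 cpm in the 15 and from 33.9 to 116.5 cpm in the 6. These are values of embryos of 1 window set apart by other genes, given without a test.

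Along the first axis of the scaling, again made without the members, embryos further along the axis had higher Osi levels among the 14 of 11-12 h and lower ones among the 21 of 14-15 h. At 11-12 h the Spearman correlation was 0.71 for the sum of the 8 genes called lower at 14-15 h and 0.71 for the sum of the 6 others. At 14-15 h, over 21 embryos, it was -0.50 and -0.77. The embryos share libraries and depth, so these are descriptions. Within 11-12 h, the Osi genes also varied together from embryo to embryo, with a median Spearman correlation of 0.85 over the 28 pairs among the 8 and 0.90 over the 15 pairs among the 6. At 14-15 h it was 0.43 among the 8 and 0.77 among the 6. Over the 48 pairs of 1 gene of the 8 with 1 of the 6, it was 0.86 at 11-12 h and 0.51 at 14-15 h. The 8 thus did not vary together more than with the 6. Some of the 8 were near 0 at 14-15 h, with medians of 0.06 cpm for Osi16, 0.23 for Osi5 and 0.31 for Osi17.

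**Figure D2:**
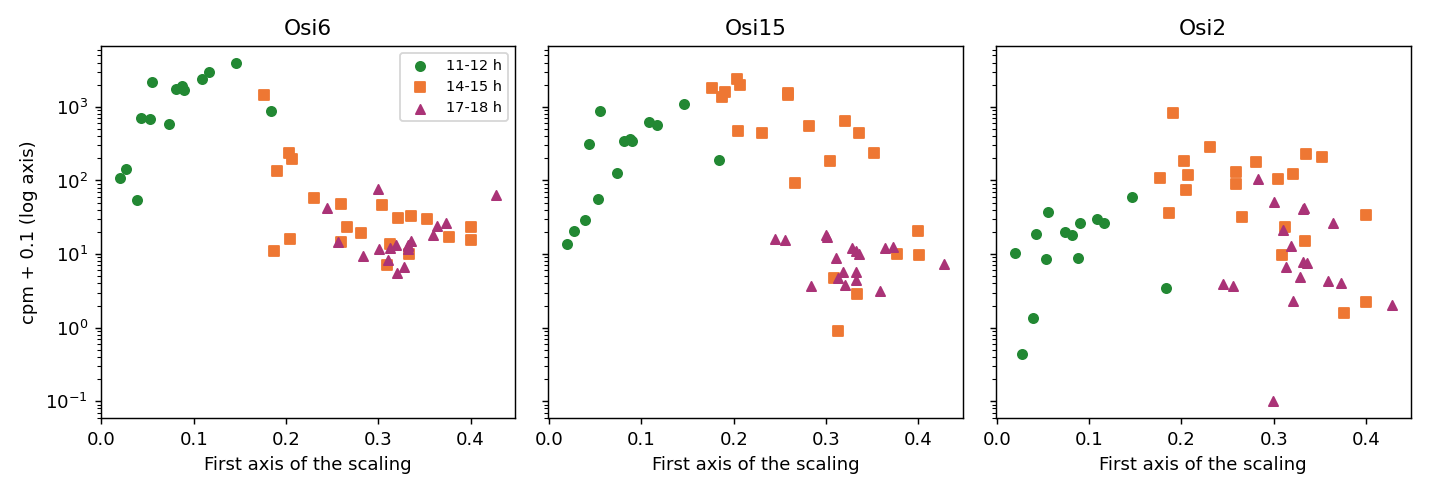
Levels of Osi6, Osi15 and Osi2 (cpm + 0.1, log axis) in each embryo of 11-12 h, 14-15 h and 17-18 h against its position on the first axis of the scaling, which was computed without these genes. Osi6 reaches 3958 cpm at 11-12 h and is mostly below 100 cpm at 14-15 h, while Osi15 reaches 2423 cpm and Osi2 835.0 cpm at 14-15 h.

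At 17-18 h the family was low again. Osi15 was at 3.10, 9.30 and 18.0 cpm (lowest, median, highest), a log2 fold change of -6.48 ± 0.81 from 14-15 h (adjusted p = 5.75e-10, edgeR). Osi20 was at 0, 0.89 and 3.79 cpm and had the largest decrease by log2 fold change, -7.01 ± 1.02 (adjusted p = 7.54e-08, edgeR). Every embryo at 17-18 h lay below the median of 14-15 h in both genes, and the windows overlapped through the low embryos of 14-15 h.

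Lower at 17-18 h than at 14-15 h were 10 of 14 Osi genes, and none was higher, where 2.97% of all genes tested were lower and 1.94% higher. Not called were Osi12, Osi16, Osi17 and Osi24, which had already fallen in the window before. Leaving out the 12 embryos, 11 were lower, where 3.73% of all genes were, and with no limit on the level 10 of 23, where 2.57% of all genes were. The medians of the summed Osi level at 14-15 h and 17-18 h were 911.4 and 101.0 cpm in library E1_1, 853.2 and 66.3 in E1_2 and 281.0 and 59.2 in E2. In E3 they were 59.7 cpm over 3 embryos and 109.3 cpm in its 1 embryo at 17-18 h, so that library gave no lower value.

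Before 11-12 h most Osi calls were lost without a few embryos. At 5-6 h against 2-3 h, 0 of 14 were higher and 5 lower (Osi5, Osi6, Osi12, Osi14 and Osi17), where 1.39% of all genes were higher and 5.24% lower. At 8-9 h against 5-6 h, 3 were higher (Osi6, Osi12 and Osi24) and 6 lower (Osi2, Osi9, Osi15, Osi18, Osi19 and Osi20), where 12.5% were higher and 15.2% lower. Without the 12 embryos none was higher or lower at 5-6 h, where 2.47% of all genes were higher and 6.49% lower. At 8-9 h 2 (Osi6 and Osi12) were then higher and none lower, where 17.2% were higher and 13.4% lower. In these embryos the median of Osi6 did not rise, at 11.1 cpm at 5-6 h and 10.8 cpm at 8-9 h. Its highest embryo at 8-9 h stood alone, at 542.7 cpm with the next at 43.9. With only the embryos most alike to their own window, Osi6 had a log2 fold change of -0.04 and was not called.

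The largest called changes, up to 2 in each direction of each comparison, were Osi5 (log2 fold change -3.66 ± 0.75) and Osi6 (-3.06 ± 0.58) at 5-6 h, and Osi2 (-3.95 ± 0.88), Osi20 (-3.67 ± 0.84), Osi12 (1.80 ± 0.67) and Osi24 (1.71 ± 0.65) at 8-9 h. Without the 12 embryos the log2 fold changes were -0.94 for Osi5 and 0.05 for Osi6 at 5-6 h. At 8-9 h they were then -0.31 for Osi2, -0.37 for Osi20, 2.26 for Osi12 and 1.12 for Osi24. Without library E2, the 5 lower genes at 5-6 h were 1 and the 6 lower at 8-9 h were 0. The 3 higher genes at 8-9 h were 1 without E1_1, 0 without E1_2 and 1 without E3.

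A few embryos had Osi levels outside those of most of their labelled window. An embryo labelled 2-3 h in library E2, most alike to 11-12 h, had a summed Osi level of 2577 cpm, of which Osi6 was 1134 cpm and Osi15 337.5 cpm. A pair labelled 5-6 h in E2, most alike to 14-15 h, had 3146 and 2054 cpm, with Osi15 at 1604 and 1178 cpm, and Osi6 at only 31.8 and 30.2 cpm. An embryo labelled 8-9 h in E1_2 had 1345 cpm, with Osi6 at 542.7 cpm and Osi2 at 7.76 cpm, and was most alike to 11-12 h. The Osi levels of these 4 embryos were thus like those of the window that their other genes most resembled, high in Osi6 or high in Osi15. This did not hold for some other embryos. An embryo labelled 17-18 h in E2 was most alike to 14-15 h, but had Osi15 at 16.8 cpm and a sum of 111.4 cpm. Others are described below.

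**Figure D3:**
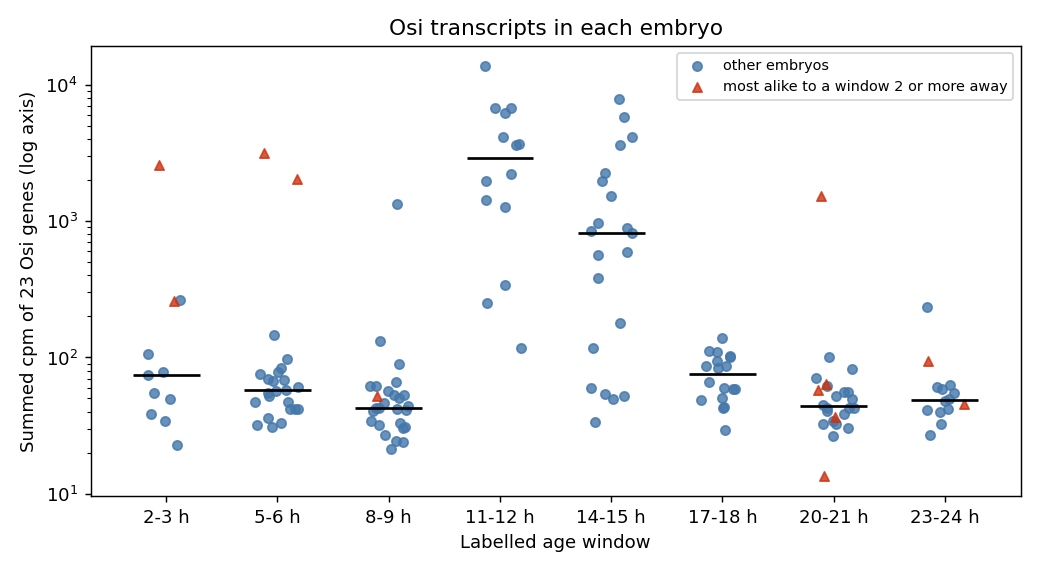
Summed level of the 23 Osi genes (cpm, log axis) in each of the 153 embryos by labelled age window, with a line at each window's median. Triangles are the 12 embryos most alike to a window 2 or more away. The medians are 2910 cpm at 11-12 h and 815.2 cpm at 14-15 h, and between 42.4 and 75.0 cpm in the 6 other windows.

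After 17-18 h little changed. At 20-21 h 0 of 14 Osi genes were called (0 at an unadjusted p under 0.05 in edgeR, 0 called in DESeq2), where 12.3% of all genes were higher and 5.36% lower. At 23-24 h 0 of 14 were called (2 at an unadjusted p under 0.05 in edgeR, 1 called in DESeq2), where 1.46% were higher and 1.75% lower. Without the 12 embryos Osi2 was lower at 20-21 h (log2 fold change -2.63, adjusted p = 1.82e-04, edgeR), where 6.29% of all genes were. Osi2 (2.92, adjusted p = 0.00228) and Osi12 (2.67, adjusted p = 0.0469) were then higher at 23-24 h, where 2.01% of all genes were. In each the highest embryo at 23-24 h stood alone, at 150.9 cpm for Osi2 with the next at 16.2, and at 30.2 cpm for Osi12 with the next at 1.24. In those embryos the median of Osi2 was 1.42 cpm at 20-21 h and 2.99 at 23-24 h, and that of Osi12 was 0.33 and then 0.15 cpm.

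The highest late Osi2 value was in an embryo labelled 20-21 h in library E3, which was most alike to 14-15 h. It had 1410 cpm of Osi2 in a summed Osi level of 1526 cpm, with Osi15 at 3.10 and Osi6 at 25.8 cpm. An embryo labelled 2-3 h in E1_2, most alike to 17-18 h, had 232.3 cpm of Osi2 in a sum of 261.6 cpm. Both had high Osi2 with the other members low. Embryos of 14-15 h most alike to their own window had Osi15 from 93.4 cpm and Osi2 up to 835.0 cpm. At 17-18 h the highest Osi2 was 105.0 cpm, in an embryo with a summed Osi level of 139.7 cpm. High Osi2 with the other members low was thus also seen at 17-18 h, at a lower level.

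A low level of the highest genes was present at every age. In the windows from 17-18 h on, the median of Osi6 lay between 12.0 and 13.2 cpm and that of Osi7 between 12.7 and 15.1 cpm. The 97 small-cluster samples, which do not follow their labelled age, had medians of 12.8 cpm for Osi6 and 15.4 for Osi7. Set against the pooled cpm of each gene in the same library, the medians of Osi2, Osi6, Osi7, Osi14 and Osi15 were at 4.72% to 14.2% (median over the genes, by library and set of samples). In pooled barcoded libraries reads can be assigned to the wrong sample, and the part of this in the low levels was not tested.

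Within the block the level did not follow position in a simple way. Of the block genes under the limit, Osi3, Osi4, Osi8, Osi11 and Osi13 lay between tested Osi genes, and Osi1 lay at the end. Osi3 and Osi4, 118 bp apart on opposite strands, had 397 and 198 counts, while Osi2 on one side had 41106 and Osi5 on the other 3522 counts over the 153 embryos. The block also holds 6 genes that are not Osi genes, of which 2 passed the limit. None of these was called at 11-12 h, where 15.4% of all genes tested were higher and 6.61% lower. Both were higher at 14-15 h, where 20.1% were, with a median log2 fold change of 2.98. With 2 genes, whether they differ from the Osi genes was not tested.

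**Figure D4:**
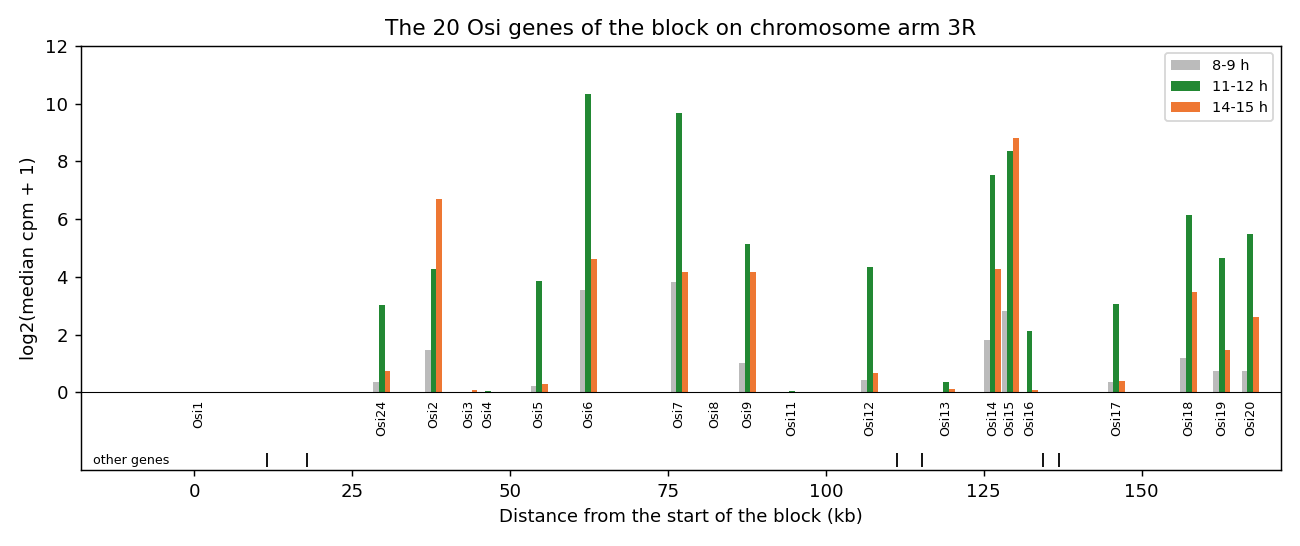
Median level (log2 of cpm + 1) at 8-9 h, 11-12 h and 14-15 h of the 20 Osi genes, placed by the distance of their middle from the start of the block on 3R (kb). Bars at the 3 ages are drawn side by side, and ticks below mark the 6 other genes of the block. At 14-15 h Osi2 (103.2 cpm) and Osi15 (446.4 cpm) are above their 11-12 h bars, and no other tested Osi gene is.

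As a set the tracheal genes did not share the Osi course, though uif also rose at 11-12 h and fell at 14-15 h. Among the transcription factors, trh, which sets tracheal fate, rose at 5-6 h, as did vvl and rib. It was at 0.18, 0.90 and 14.6 cpm (lowest, median, highest) at 2-3 h and at 0.48, 18.9 and 56.8 cpm at 5-6 h, a log2 fold change of 3.14 ± 0.66 (adjusted p = 2.97e-04, edgeR). Its median then declined through 18.4, 14.7, 11.1, 7.29 and 2.48 to 1.03 cpm at 23-24 h, and no further step between neighbouring windows was called.

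The partner of trh, tgo, a broadly used bHLH-PAS protein, was present from the start, with medians of 75.7, 56.4, 64.9 and 57.4 cpm up to 11-12 h. It fell at 14-15 h to 4.88, 26.4 and 59.5 cpm (lowest, median, highest) from 18.8, 57.4 and 105.0 cpm, a log2 fold change of -1.02 ± 0.39 (adjusted p = 0.0319, edgeR). The windows overlapped widely. With only the embryos most alike to their own window it was -0.80 and not called.

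The POU factor gene vvl rose at 2 steps. It went from 2.78, 8.11 and 58.7 cpm (lowest, median, highest) at 2-3 h to 23.6, 53.4 and 124.3 cpm at 5-6 h, with a log2 fold change of 1.85 ± 0.45 (adjusted p = 0.00273, edgeR). At 8-9 h it was at 4.63, 181.9 and 380.4 cpm, 1.65 ± 0.33 higher on the log2 scale (adjusted p = 3.10e-05, edgeR). Its median was 190.8 cpm at 11-12 h and fell through 100.3 and 67.7 to 28.1 and 23.9 cpm. In all 153 embryos no step of this fall was past both limits of a call. With only the embryos most alike to their own window, the step to 20-21 h was called lower (log2 fold change -1.115). It was also called with no limit on the level (-1.02).

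The BTB-domain factor gene rib, needed for tracheal cell migration and salivary gland shape, fell at 11-12 h and again at 14-15 h. From 2.55, 54.6 and 220.0 cpm at 2-3 h it went to 14.9, 224.7 and 445.4 cpm at 5-6 h (log2 fold change 1.54 ± 0.39). It was highest at 8-9 h, at 6.02, 311.4 and 548.8 cpm. At 11-12 h no embryo was above the highest of 8-9 h, with 56.1, 95.9 and 213.7 cpm (log2 fold change -1.61 ± 0.35, adjusted p = 1.67e-04, edgeR). At 14-15 h, with 12.3, 28 and 45.8 cpm, every embryo lay below the lowest of 11-12 h (log2 fold change -1.77 ± 0.34, adjusted p = 8.68e-06, edgeR). rib fell in the step in which the Osi genes rose.

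The gene dysf, a bHLH-PAS factor of the cells that join branches, was low throughout. Its median was 0 at 2-3 h, 0.35 cpm at 5-6 h and 2.38 cpm at 8-9 h, with a highest of 12.1 cpm at 8-9 h, and the step to 8-9 h was called (log2 fold change 2.90 ± 0.65, adjusted p = 1.67e-04, edgeR). Its highest values, 37.4 cpm at 20-21 h and 25.2 cpm at 23-24 h, came from windows with medians of 0 and 0.11 cpm. The first was in one of the 12 embryos most alike to a distant window, and the highest at 20-21 h among the others was 6.63 cpm.

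The apical and luminal genes were later. The apical membrane protein gene uif rose to 3.14, 70.0 and 194.0 cpm (lowest, median, highest) at 11-12 h from 3.24, 34.1 and 86.2 cpm at 8-9 h, a log2 fold change of 1.18 ± 0.36 (adjusted p = 0.00801, edgeR). It fell at 14-15 h to 0.93, 18.1 and 52.4 cpm (log2 fold change -1.74 ± 0.39, adjusted p = 1.27e-04, edgeR). Of the 7 genes it was the only one called higher at 11-12 h, and 5 of its 14 embryos were above the highest of 8-9 h. With only the embryos most alike to their own window, uif was also called lower at 20-21 h (log2 fold change -1.10).

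The luminal zona pellucida domain protein gene pio climbed by small steps, with medians of 5.20, 16.8, 23.4, 54.7, 88.6 and 199.8 cpm up to 17-18 h, with no step called in all 153 embryos. With only the embryos most alike to their own window, the steps to 5-6 h (log2 fold change 2.19) and to 17-18 h (1.37) were called. At 20-21 h it was at 0, 65.7 and 292.1 cpm (lowest, median, highest) against 62.9, 199.8 and 286.4 cpm at 17-18 h, with a log2 fold change of -1.13 ± 0.37 (adjusted p = 0.0172, edgeR). With those 12 embryos left out this was -0.96 and not past the limit on the fold. The windows overlapped from the lowest to the highest embryo of 17-18 h.

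By contrast, then, 3 of the 7 were higher and 0 lower at 5-6 h (median log2 fold change 1.54), and 2 higher and 0 lower at 8-9 h (0.49). At 11-12 h 1 was higher and 1 lower (-0.40), and at 14-15 h 0 were higher and 3 lower (-0.96). At 17-18 h none was called (2 at an unadjusted p under 0.05 in edgeR, 0 called in DESeq2), and at 20-21 h 1 was lower. At 23-24 h none was called (0 at an unadjusted p under 0.05 in edgeR, 0 called in DESeq2). The background shares are those given above for each pair of windows.

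**Figure D5:**
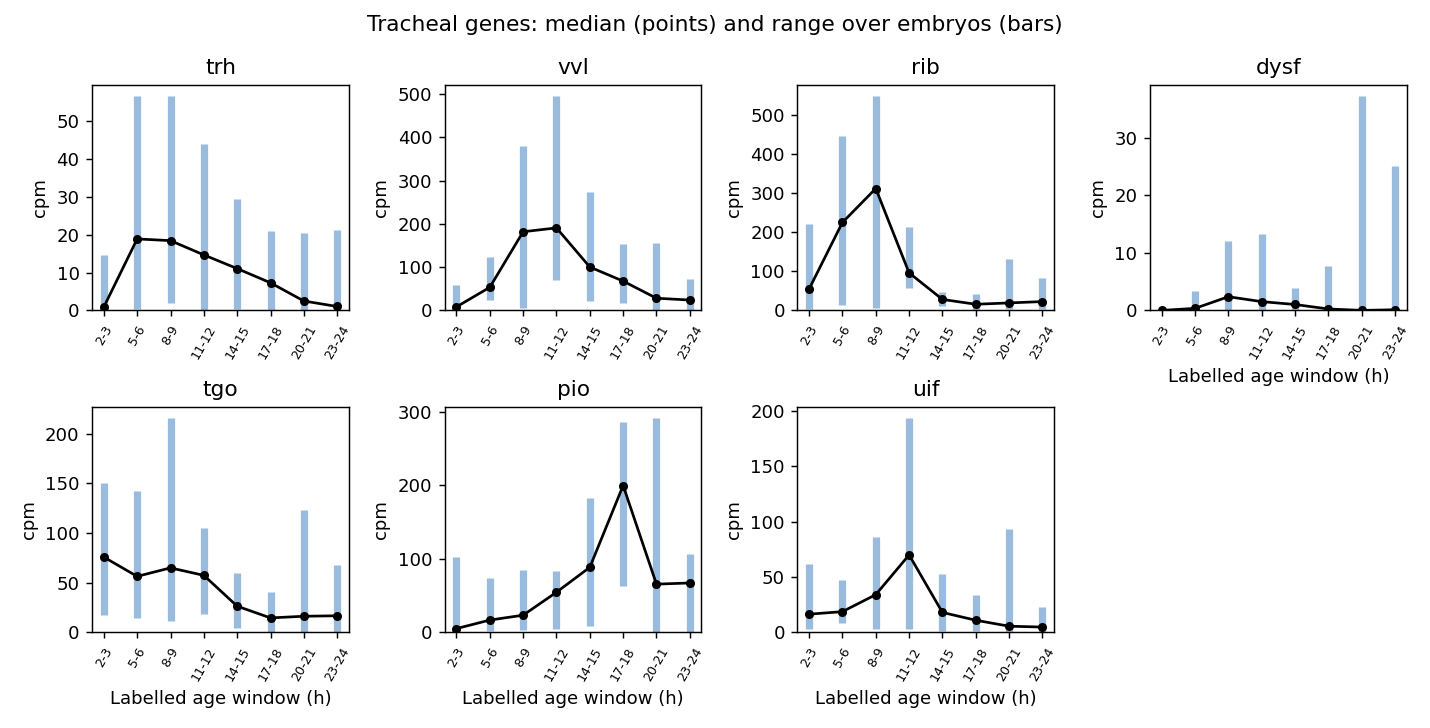
Level (cpm) of the 7 tracheal genes by labelled age window, with points at the median over embryos and bars from the lowest to the highest embryo. The medians are highest at 2-3 h for tgo, 5-6 h for trh, 8-9 h for rib and dysf, 11-12 h for vvl and uif, and 17-18 h for pio.

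At 11-12 h and 14-15 h the Osi genes spread widely between embryos, given here as a description. At 11-12 h the SD of log2(cpm + 1) over embryos had a median of 1.99 over the 14 Osi genes, from 1.22 to 2.81, and of 0.97 over the 7 tracheal genes. Genes of a similar mean in that window had a median SD of 0.95 beside the Osi genes and of 0.72 beside the tracheal genes. At 14-15 h the medians were 1.95 for the Osi genes and 0.93 for the tracheal genes, beside 0.95 and 0.95. At 17-18 h the Osi median was 0.57 beside 0.86 for similar genes. The Osi spread was also the wider at 2-3 h, with 1.70 beside 1.215.

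Other genes of tracheal and cuticle formation were counted from lists. At 11-12 h, 9 of 11 zona pellucida domain genes, which shape the apical matrix, were higher and none lower, where 15.4% of all genes tested were higher. Among them, neo went from a median of 25.7 to 210.9 cpm and then to 2.21 cpm at 14-15 h, the largest fall of the list (log2 fold change -6.26 ± 0.52). At 14-15 h 6 of the 11 were lower and 2 higher, where 9.09% of all genes were lower and 20.1% higher. Of 10 genes of the tracheal luminal matrix 7 were higher at 11-12 h, and Gasp, a chitin-binding protein of the lumen, went from 12.9 to 514.2 cpm and stayed at 451.8 cpm at 14-15 h before a fall (-3.80 ± 0.73).

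Of 10 tracheal branching genes 3 were higher at 5-6 h (1 when the 12 embryos were left out), where 1.39% of all genes were, and at 11-12 h 0 were higher and 1 lower. The FGF receptor gene btl had medians of 18.8 cpm at 5-6 h and 3.06 cpm at 11-12 h, and its largest called change was at 17-18 h (-2.23 ± 0.59). None of 14 septate junction genes was called at 11-12 h, and cora, a junction protein, rose at 8-9 h (2.16 ± 0.33). Of 5 epidermal transcription factors, Blimp-1 rose at 8-9 h (3.55 ± 0.47) to a median of 34.8 cpm and was at 2.19 cpm at 11-12 h. None of the 8 ppk sodium channel genes on the list reached the limit on the level.

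Genes of other cell types were counted in the same way, beside 15.4% of all genes higher at 11-12 h and 20.1% at 14-15 h. All 6 muscle genes were higher at 11-12 h and again at 14-15 h, led by Mhc (3.91 ± 0.47 at 11-12 h). Of 6 neuron genes 3 were higher at 11-12 h and 4 at 14-15 h, led by para (3.17 ± 0.58 at 14-15 h), and of 5 midgut genes 1 and then 5, led by Mal-A1 (4.41 ± 0.70 at 14-15 h). Of 6 tested maternal genes 1 was higher and 1 lower at 11-12 h (0 and 1 when the 12 embryos were left out). The largest called change was that of pgc at 20-21 h (3.23 ± 0.61). Its median was 2.45 cpm at 17-18 h and 4.98 cpm at 20-21 h. At that step 4 of the 6 were higher, where 12.3% of all genes were. Of the 12 embryos, 5 were labelled 20-21 h, and most of these were most alike to 2-3 h. The part of cell type composition in the Osi course was not tested.

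The genes most like the Osi genes over the 153 embryos were found by Spearman correlation with the median standardized Osi level. The first 10 were tpr (0.72), CG34115 (0.71), CG13737 (0.71), CG4666 (0.71), Cpr65Eb (0.70), apn (0.69), nur (0.69), Lip1 (0.67), Ccp84Ac (0.67) and CG15927 (0.66). Cpr65Eb and Ccp84Ac code for cuticle proteins and Lip1 for a lipase. Within this group tpr had a median of 0.30 cpm at 8-9 h, 35.8 at 11-12 h and 1.53 at 14-15 h, like Osi6, whereas CG4666 went on from 131.7 at 11-12 h to 302.9 cpm at 14-15 h, like Osi15.

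The gene apn lies at 13287655 to 13288813 on 3R, next to Osi22, which was near 0, while apn had a median of 42.3 cpm at 11-12 h and 3.55 at 14-15 h. The tracheal genes were less like the Osi median, from -0.03 for rib to 0.44 for uif, with 0.19 for trh and 0.27 for vvl. The tested Osi genes, which make up that median, ran from 0.46 for Osi17 to 0.81 for Osi20. These are correlations over embryos that share windows and libraries.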

How the data were processed

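Single embryos were profiled by BRB-seq. The authors aligned the reads with STAR to BDGP6 and counted them on genes of Ensembl release 91 with HTSeq, and the deposited values are raw counts. From these, protein-coding genes of Ensembl release 115 were kept (13829 genes; the 3869 other rows held 4.71% of the counts). Files give gene IDs only, so positions are those of release 115, and sequences were not used here. An older Osi10 row is not in that annotation and was not analysed here. The block was taken as the run of Osi genes with gaps under 100000 bp.

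Samples needed 300000 counts and 4500 genes above 0. The small cluster was delimited on a multidimensional scaling (Spearman) of 9513 genes without members and lists, by first axis under -0.025 and second above 0. With all genes, the same 97 were found. Each embryo's most alike window was taken over the same genes.

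Counts were tested with edgeR 4.0.16 (quasi-likelihood, TMM, window and library terms, mean cpm above 1) in R 4.3.3, with Benjamini-Hochberg adjustment over all 9833 genes. A gene was called at adjusted p under 0.05 and log2 fold change above 1 in size. The 7 comparisons were of consecutive windows. The model was tested on simulated data. Alternatives included DESeq2 1.42.0, limma 3.58.1 with ComBat (sva 3.50.0), other scalings, filters, depths, samples and libraries. Levels were summarised in Python.

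The members and lists were chosen with earlier results of these data known. Named by rule were the tracheal genes, the 2 largest called Osi changes in each direction of each comparison, Osi genes outside arm 3R or with another window of highest median, the 10 most alike genes and each list's largest called change. Other genes, and the division of the Osi genes at 14-15 h, were chosen after their values were seen.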

Additional observations from a re-analysis of the deposited data

Results flagged for a closer look

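The summed Osi level was looked at for samples far from the others in 27 groups of 4 to 10 samples, of 1 window within 1 library or of 1 window in the small cluster. A sample stood apart in 10 of them. The limits used give about 1 in 20 groups for normally distributed values. The summed levels were skewed to high values, with 116.9, 2910 and 13660 cpm (lowest, median, highest) at 11-12 h. The 10 of 27 can therefore not be set against that rate. The highest embryo stood apart at 2-3 h in library E2 (2577 cpm), at 5-6 h in E1_1 (147.3 cpm) and in E3 (97.9 cpm), and at 8-9 h in E1_2 (1345 cpm). It also did at 11-12 h in E3 (13660 cpm), at 14-15 h in E2 (3608 cpm) and at 20-21 h in E3 (1526 cpm). The lowest embryo stood apart at 11-12 h in E2 (249.5 cpm).

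In the small cluster the highest sample stood apart at 17-18 h (212.9 cpm) and at 20-21 h (196.3 cpm). The small-cluster samples entered no comparison, and their median summed Osi level of 48.1 cpm was above 0.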

How the results depend on the processing

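No paired analysis was possible because the labels number no replicates that windows share. Over 16 alternatives, the 14 Osi genes higher at 11-12 h stayed within 13 to 18. Of 383 recomputed values of 24 named fold changes, 332 kept direction and side of the threshold, 49 lost the call and 2 reversed. Both were Osi6 at 5-6 h against 2-3 h, at 0.049 without the 12 embryos most alike to a distant window and 0.176 without library E2, against -3.06.

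Genes lower at 5-6 h (5) were 0 by voom with ComBat, 2 with all samples that passed the limits, 0 without the 12 embryos, 1 without E2 and 1 with only embryos most alike to their own window, a setting chosen after seeing the data. Genes higher at 8-9 h (3) were 0 by voom, 1 with all samples, 1 without E1_1, 0 without E1_2, 1 without E3 and 1 in own-window embryos. Genes lower at 8-9 h (6) were 0 by voom, without the 12, without E2 and in own-window embryos.

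Genes higher at 14-15 h (1) were 3 with no filter, 2 with all samples, 0 without E1_1, 0 without E2 and 2 in own-window embryos. Genes called at 20-21 h (0) were 2 with no filter, 1 without the 12, 1 without E3 and 1 in own-window embryos. Genes called at 23-24 h (0) were 1 by DESeq2, 1 with all samples, 2 without the 12, 1 without E2 and 2 in own-window embryos. The cause was not tested beyond the samples each setting leaves out. In the shallowest embryo, of 377740 counts, genes with a low level cannot be told from 0.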

Other observations

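The small-cluster samples also held little of most tracheal genes. Over the 97 samples, medians were 0.87 cpm for trh, 2.39 for vvl, 8.65 for rib, 0 for dysf, 2.18 for pio and 2.22 for uif. The exception was tgo, at 51.3 cpm, beside medians of 56.4 to 75.7 cpm in the embryos of the windows before 14-15 h. The sum of the Osi genes in these samples ran from 3.90 to 212.9 cpm.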
